A study of Mus musculus with 8 samples.

Results

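Heat shock and unfolded protein response genes were followed in isolated mouse glomeruli, the filtering units of the kidney, after a podocyte-directed Tln1 genotype was induced and after valproic acid was given to such mice. The list held 40 gene symbols, and each was read from the probe set with that symbol alone that had the highest mean over the 8 arrays. Of the 40, 38 were measured, among 22180 genes in all: 9 of 10 cytosolic chaperones, 2 of 2 mitochondrial chaperones and 27 of 28 endoplasmic reticulum (ER) genes. Hsp90ab1, a cytosolic chaperone gene, had no probe set in the annotation used here, and Pdia4, an ER disulfide isomerase gene, had only a probe set shared with Mir704, so neither is counted below. All values are log2 expression values, on which a difference of 1 is a doubling, and 35 of the 38 genes had a mean above the median gene mean of 4.92. Derl3, Trib3 and Chac1 did not.

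The 8 arrays fall into 3 groups, all of mice 13 weeks old that had received doxycycline for 3 weeks from the age of 8 weeks. The 2 control arrays come from mice whose genotype the labels give only as control. The 3 Tln1 vehicle arrays and the 3 Tln1 VPA arrays come from mice labelled Tln1 Pod-rtTA TetO-Cre, which then received vehicle or valproic acid (VPA) for 2 weeks. By its name this system makes Cre recombinase under doxycycline in podocytes, the cells that wrap the glomerular capillaries, while the RNA came from whole glomeruli. The labels call the genotype Tln1 without giving the allele, and for the controls they name doxycycline but neither vehicle nor its absence. They also do not say whether each array is a separate animal, so p values measure the spread between these arrays only. In RNA of mixed cells, fewer cells of a type and less RNA per cell cannot be told apart.

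The heat shock response is driven by the transcription factor HSF, which binds heat shock elements and turns on cytosolic chaperone genes when proteins misfold. The unfolded protein response does the same for the ER through the sensors IRE1 (Ern1), PERK (Eif2ak3) and ATF6: IRE1 splices the message of Xbp1, PERK raises the translation of Atf4, and ATF6 is cut to give an active factor, and together they turn on ER chaperones, ER-associated degradation and, through ATF4, genes of amino acid supply and cell death. Podocytes make large amounts of membrane and matrix protein, and ER stress is a known feature of podocyte disease. Arrays of this kind read neither Xbp1 splicing nor Atf4 translation, so activity of these factors is seen here only through the messages of their targets.

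The promoters of 4 members show the elements through which these responses act. The windows hold the 250 bases before each gene's start, from RefSeq on build GRCm38.p6, printed on the gene's own strand, and 34 of the 40 listed genes had one. They are shown because Hspa1a and Hspa1b had the widest differences of all members in Tln1 vehicle against control, Hspa5 is the standard reporter of the unfolded protein response, and Herpud1 had the smallest p of all members in VPA against vehicle. Capitals mark a heat shock element in Hspa1a and Hspa1b, the ER stress response element (ERSE) in Hspa5 and its second form (ERSE-II) in Herpud1.
Hspa1a, chr17:34972157-34972406, minus strand: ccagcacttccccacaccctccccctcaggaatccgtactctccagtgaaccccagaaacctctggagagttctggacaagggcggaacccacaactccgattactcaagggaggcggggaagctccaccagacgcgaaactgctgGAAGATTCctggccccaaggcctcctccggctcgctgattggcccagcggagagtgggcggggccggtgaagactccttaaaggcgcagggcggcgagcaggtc
Hspa1b, chr17:34959239-34959488, minus strand: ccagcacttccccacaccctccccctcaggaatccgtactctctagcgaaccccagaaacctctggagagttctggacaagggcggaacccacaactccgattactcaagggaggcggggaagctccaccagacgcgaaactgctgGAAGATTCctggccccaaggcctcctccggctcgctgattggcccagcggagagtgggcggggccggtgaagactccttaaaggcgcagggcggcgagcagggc
Hspa5, chr2:34771840-34772089, plus strand: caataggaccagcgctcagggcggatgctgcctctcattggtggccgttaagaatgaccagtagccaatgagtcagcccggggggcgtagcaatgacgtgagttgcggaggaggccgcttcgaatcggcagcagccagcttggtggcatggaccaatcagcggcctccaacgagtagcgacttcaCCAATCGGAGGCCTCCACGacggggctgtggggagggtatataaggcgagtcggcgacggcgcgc
Herpud1, chr8:94386179-94386428, plus strand: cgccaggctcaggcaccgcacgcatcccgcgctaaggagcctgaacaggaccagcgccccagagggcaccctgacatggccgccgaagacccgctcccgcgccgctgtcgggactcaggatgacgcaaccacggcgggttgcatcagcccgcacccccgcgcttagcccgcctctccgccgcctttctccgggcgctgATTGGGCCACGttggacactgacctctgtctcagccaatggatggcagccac

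The windows of Hspa1a and Hspa1b were the same at 247 of 250 positions (98.8%), and in both the element began 104 bases before the start. In Hspa5 the ERSE began 65 bases and in Herpud1 the ERSE-II 52 bases before the start. A heat shock element was searched as GAANNTTC or TTCNNGAA, and a match was found in 14.5% of 27025 genes with a window. It was found in 4 of 7 cytosolic members with a window (Hspa1a, Hspa1b, Hspb1 and Hsph1), in both mitochondrial members and in 2 of 25 ER members (Eif2ak3 and Asns). The extended heat shock element, with a further unit 2 bases after the pair and so overlapping the first motif, was found in 0.514% of all genes and in Hspd1 and Hspe1 alone among the members. The ERSE, searched as CCAAT and CCACG with 9 bases of any kind between them, was found in 0.13% of all genes and in 9 of 25 ER members: Hspa5, Hsp90b1, Dnajc3, Pdia6, Calr, Canx, Creld2, Derl3 and Syvn1. It was found in 0 of 7 cytosolic members. The ERSE-II, searched as ATTGG and CCACG with 1 base between them, was found in 0.037% of all genes and in Herpud1 among the members. The element bound by ATF4 and CEBP factors, searched as TGATGNAA, was found in 3.91% of all genes and in Herpud1, Asns and Chac1. All motifs were searched on both strands, and a match is a match of letters, not a measured binding site.

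The arrays split into 2 sets that cross the groups, and this split bears on every result below. The first set holds control array 1, Tln1 vehicle arrays 1 and 2 and Tln1 VPA arrays 1 and 2, and the second holds control array 2, Tln1 vehicle array 3 and Tln1 VPA array 3. Across all genes, arrays correlated at 0.990 to 0.995 within a set and at 0.966 to 0.979 between sets. The mean level of 6 of 7 podocyte markers was 7.09 to 7.88 over the first set but 8.56 to 9.21 over the second, while that of 7 proximal tubule markers, from a cell type outside the glomerulus, was 11.85 to 12.34 and 10.72 to 11.17. By group the podocyte mean was 7.13 to 9.21 in control, 7.63 to 8.87 in Tln1 vehicle and 7.09 to 8.56 in Tln1 VPA, so the groups overlap. The mean of 6 mesangial and smooth muscle markers was 6.94 to 7.07 in control, 7.41 to 7.72 in Tln1 vehicle and 7.21 to 7.38 in Tln1 VPA, which do not overlap. In the same order, 6 macrophage markers averaged 5.31 to 5.35, 4.83 to 5.63 and 5.11 to 6.38, and 6 endothelial markers 9.01 to 9.54, 9.19 to 10.13 and 9.05 to 9.25. Y-linked genes averaged 3.57 in control array 1 and 4.85 or more in the 4 Tln1 arrays of the first set, but 2.56 to 2.72 in the 3 arrays of the second. The part of cell makeup and of the Y-linked signal in the results was not tested beyond the alternatives that are given. Tln1 itself stood at 8.97 and 8.64 in control, at 8.95, 8.95 and 8.60 in Tln1 vehicle and at 8.76, 8.88 and 8.59 in Tln1 VPA, with overlapping groups and a Tln1 vehicle minus control difference of 0.03 (SE 0.17, limma adjusted p = 1.00). Whether its probe set lies in a deleted part is not known here.

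No member passed the test in any of the 3 comparisons. In limma's test with Benjamini-Hochberg adjustment, 0 of 38 members and 0 of 22180 genes (0%) were called at an adjusted p below 0.05 in Tln1 vehicle against control, in Tln1 VPA against Tln1 vehicle and in Tln1 VPA against control, and the adjusted p of each member was 1.00 in each. Differences below are given with limma's standard error (SE) and carry that adjusted p unless another is named. At an unadjusted p below 0.05, 0 members passed in each, against 1.45%, 1.26% and 1.87% of all genes. In a fit blocked on array set, 4, 4 and 5 members had an unadjusted p below 0.05 (10.5%, 10.5% and 13.2% of 38), against 7.30%, 5.43% and 8.12% of all genes, and 0 genes were called after adjustment (0%). The array sets were drawn from these same values, and the blocked SEs, p values and ranks, here and below, take no account of that. The 3 comparisons share arrays, so their values are given side by side and not as independent results.

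Hspa1b and Hspa1a, the inducible cytosolic chaperone genes of the Hsp70 family, had the widest differences between Tln1 vehicle and control, and neither passed the test. Hspa1a, which refolds damaged proteins and is little expressed in many unstressed cells, stood at 6.88 and 8.69 in control, at 7.76, 8.08 and 9.97 in Tln1 vehicle and at 7.61, 7.59 and 9.19 in Tln1 VPA. The second-set array was the highest of each group, and the groups overlap. Hspa1b, its neighbour and near copy, stood at 6.60 and 7.44 in control, at 7.64, 7.63 and 8.73 in Tln1 vehicle and at 7.61, 7.28 and 8.85 in Tln1 VPA. All Tln1 vehicle arrays lay above both control arrays for Hspa1b, and Tln1 VPA array 2 lay below control array 2. Because the genes are nearly identical, either probe set may read both messages. A probe set that carries both symbols, at a mean of 4.17, differed by -0.11 between Tln1 vehicle and control.

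Between Tln1 vehicle and control, Hspa1b was higher by 0.98 (SE 0.54) and Hspa1a by 0.82 (SE 0.83). Within the array sets, Hspa1a differed by 1.04 in the first and 1.28 in the second, and Hspa1b by 1.03 and 1.29. In each set every Tln1 array lay above that set's only control array for both genes. By mean, 20.8% of all genes were higher than control in both sets in Tln1 vehicle, and 22.4% in Tln1 VPA. The share of all genes with every Tln1 array above was not counted. In the blocked fit the difference was 1.12 for Hspa1a (SE 0.14, limma adjusted p = 0.318) and 1.17 for Hspa1b (SE 0.15, limma adjusted p = 0.318), which ranked 4 and 9 by p among 22180 genes and did not pass. In the fit on group alone, the values without control array 1 were -0.09 for Hspa1a and 0.56 for Hspa1b. They were 1.72 and 1.40 without control array 2, and 0.14 and 0.61 without Tln1 vehicle array 3. Each of these leaves the array sets unequally spread between control and Tln1 vehicle. Leaving out a control array or a second-set Tln1 array does the same in the comparisons with control below. Without Tln1 vehicle array 1 the values were 1.24 and 1.16, and control and Tln1 vehicle then each keep 1 array per set. The blocked and within-set values were not recomputed with arrays left out, and each set has 1 control array. With the Y-linked mean as a covariate the differences were 1.92 and 1.73.

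Between VPA and vehicle neither gene passed the test. Against Tln1 vehicle, Hspa1a in Tln1 VPA differed by -0.48 (SE 0.74), by -0.32 within the first set and by -0.78 within the second. The blocked fit gave -0.48 as well, with an SE of 0.12 (limma adjusted p = 0.816), and without Tln1 vehicle array 3 the unblocked value was 0.21. Hspa1b differed by -0.09 (SE 0.48), by -0.19 within the first set and by 0.12 within the second. Against control, Hspa1b in Tln1 VPA was higher by 0.89 (SE 0.54), by 0.84 and 1.42 within the sets, and by 1.08 in the blocked fit (SE 0.15, limma adjusted p = 0.208). Without Tln1 VPA array 3 it was 0.42, and without control array 1 it was 0.48. Hspa1a was higher by 0.34 (SE 0.83), by 0.72 and 0.50 within the sets, and by 0.65 in the blocked fit (SE 0.14, limma adjusted p = 0.305). Its unblocked value was -0.56 without control array 1, 1.25 without control array 2 and -0.19 without Tln1 VPA array 3.

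**Figure D1:**
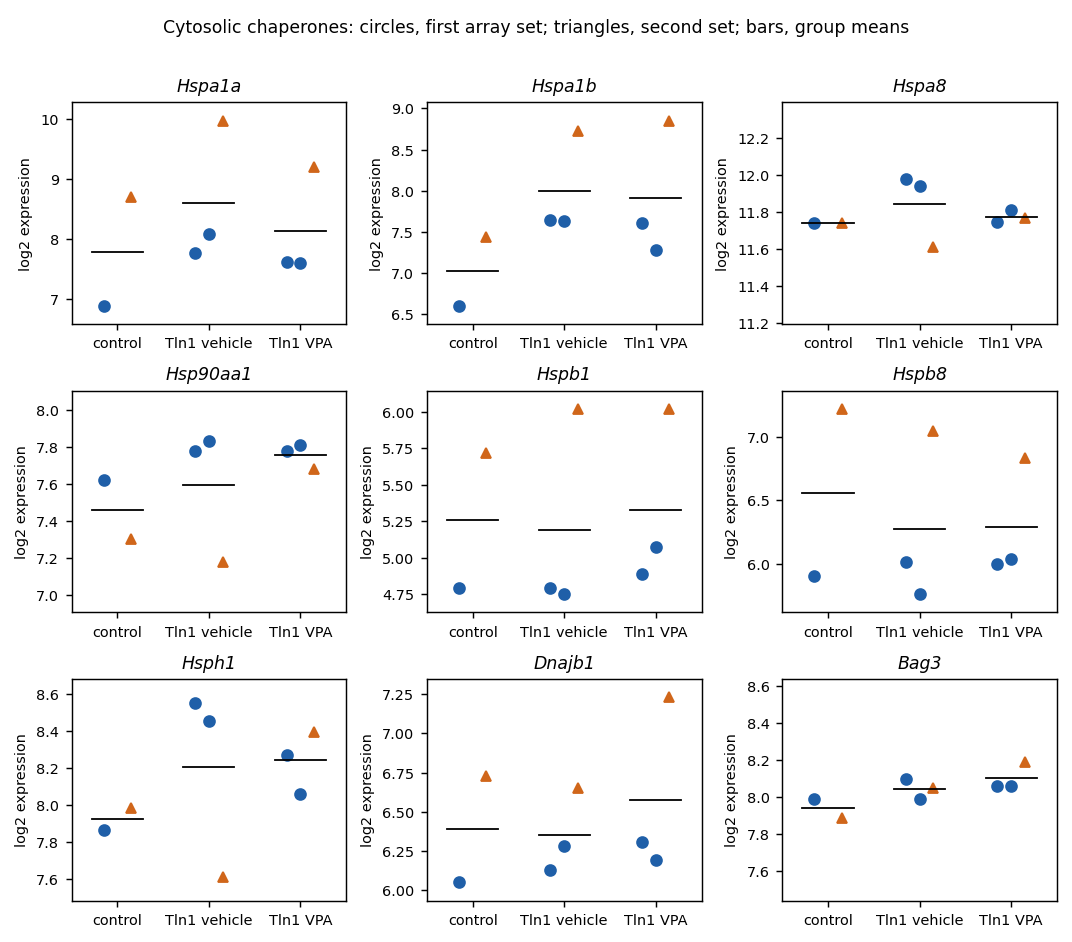
Log2 expression of the 9 measured cytosolic chaperone genes in each of the 8 arrays, by group, with the array set shown by the marker and the group mean by a bar. Hspa1a, Hspa1b, Hspb1, Hspb8 and Dnajb1 stand higher in the second-set array than in the first-set arrays of each group. The vertical axes differ between genes and do not start at 0.

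The other cytosolic chaperones had estimates closer to 0 in Tln1 vehicle against control. Hsph1, a nucleotide exchange partner of the Hsp70 chaperones, stood at 7.86 and 7.98 in control, at 8.55, 8.45 and 7.61 in Tln1 vehicle and at 8.27, 8.06 and 8.39 in Tln1 VPA. Tln1 vehicle arrays 1 and 2 were the highest and array 3 the lowest of all, so the difference from control of 0.28 (SE 0.27) is 0.64 within the first set and -0.37 within the second, and 0.58 without Tln1 vehicle array 3. Hsp90aa1, the inducible cytosolic Hsp90, stood at 7.62 and 7.30 in control, at 7.78, 7.83 and 7.18 in Tln1 vehicle and at 7.78, 7.81 and 7.68 in Tln1 VPA. All VPA arrays lay above both control arrays (difference 0.30, SE 0.21; 0.46 without control array 1 and 0.14 without control array 2), and against Tln1 vehicle the difference was 0.16 (SE 0.19), but -0.05 without Tln1 vehicle array 3. Bag3, a co-chaperone that steers clients to autophagy, stood at 7.99 and 7.89 in control, at 8.10, 7.99 and 8.05 in Tln1 vehicle and at 8.06, 8.06 and 8.19 in Tln1 VPA. It was higher in Tln1 VPA than in control by 0.17 (SE 0.11), with no overlap of the groups, in a gene whose arrays span 7.89 to 8.19.

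Dnajb1, a J-domain partner that loads clients onto Hsp70, stood at 6.05 and 6.73 in control, at 6.13, 6.28 and 6.65 in Tln1 vehicle and at 6.31, 6.19 and 7.23 in Tln1 VPA. Its VPA minus vehicle difference was 0.22 (SE 0.31) and -0.10 without Tln1 VPA array 3, its highest array. The small heat shock genes Hspb1, which holds unfolded clients and binds actin, and Hspb8, the partner of Bag3, followed the array sets: Hspb1 spanned 4.75 to 5.07 on first-set arrays and 5.72 to 6.02 on second-set arrays, and Hspb8 5.76 to 6.04 and 6.83 to 7.22. Hspa8, the constitutive Hsp70, spanned 11.61 to 11.98, and its 3 group differences were 0.10, -0.07 and 0.03. Its 4 probe sets with this symbol alone disagree: another gave 0.35, 0.34 and 0.69 for the same comparisons. Over the 9 cytosolic members the median difference was 0.11 in Tln1 vehicle against control (6 of 9 higher), 0.04 in VPA against vehicle (6 of 9 higher) and 0.19 in VPA against control (8 of 9 higher), beside 0.02, 0.00 and 0.02 over all genes. Without control array 2 the medians against control were 0.34 for Tln1 vehicle and 0.39 for VPA, and the VPA median was 0.03 without control array 1 and 0.04 without Tln1 VPA array 3. The Y-linked covariate gave 0.36 for Tln1 vehicle.

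The mitochondrial chaperonin genes Hspd1 and Hspe1, whose products form the folding chamber of the matrix, had differences below their SE in each comparison of the fit on group alone. Hspd1 spanned 9.88 to 10.07 on first-set arrays and 8.71 to 9.22 on second-set arrays, and its differences were 0.04 in Tln1 vehicle against control, 0.04 in VPA against vehicle and 0.08 in VPA against control, each with an SE of at least 0.41. Hspe1 differed by -0.09, 0.10 and 0.02 (SE 0.20, 0.18 and 0.20).

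Among the sensors and transcription factors of the unfolded protein response, the highest levels of Xbp1 came from Tln1 arrays of the first set. Xbp1, the factor downstream of IRE1, stood at 8.63 and 8.74 in control, at 9.06, 9.08 and 8.66 in Tln1 vehicle and at 9.10, 8.87 and 8.72 in Tln1 VPA. The second-set arrays of the 3 groups lay within 8.66 to 8.74, and the 4 first-set Tln1 arrays lay at 8.87 and above. The difference from control was 0.25 for Tln1 vehicle (SE 0.18; 0.44 in the first set, -0.08 in the second) and 0.21 for Tln1 VPA (SE 0.18; 0.35 and -0.02). Atf4, the factor downstream of PERK, stood at 6.48 and 6.95 in control, at 6.68, 6.68 and 6.99 in Tln1 vehicle and at 6.88, 6.83 and 7.06 in Tln1 VPA. Its level was ordered control, Tln1 vehicle, Tln1 VPA in each set, in steps of 0.20 and 0.17 in the first and 0.04 and 0.06 in the second. How many of all genes share this order was not counted. The VPA minus control difference was 0.20 (SE 0.18), 0.26 in the blocked fit (SE 0.09, limma adjusted p = 0.520) and -0.03 without control array 1.

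Eif2ak3, which encodes PERK, stood at 7.33 and 7.14 in control, at 7.33, 7.33 and 7.03 in Tln1 vehicle and at 7.64, 7.42 and 7.14 in Tln1 VPA. In the first set both VPA arrays were the highest, and in the second set VPA and control were equal at 7.14. The VPA minus vehicle difference was 0.17 (SE 0.16), but 0.05 without Tln1 VPA array 1, 0.07 without Tln1 vehicle array 3 and 0.30 without Tln1 VPA array 3. Atf6, the ER membrane factor, stood at 8.31 and 8.46 in control, at 8.35, 8.48 and 8.47 in Tln1 vehicle and at 8.30, 8.20 and 8.42 in Tln1 VPA, which was lower than Tln1 vehicle by 0.13 on average (difference -0.13, SE 0.11) with overlapping arrays. Ern1, which encodes IRE1, differed by 0.12, -0.07 and 0.05 in the 3 comparisons (SE 0.21, 0.18 and 0.21).

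ER chaperones and folding enzymes stood higher in Tln1 vehicle than in control in the first array set and lower in the second. Of the 13 measured, 13 were higher in the first set (median 0.30) and 13 lower in the second (median -0.20); the same pattern held for 18 of the 27 ER members and for 20.8% of all genes. Each set has a single control array and the second set a single array per group, so this is a description of these arrays, with no test. Hspa5, which encodes BiP, the main ER Hsp70 and the keeper of the 3 sensors, stood at 8.42 and 8.77 in control, at 8.97, 8.96 and 8.70 in Tln1 vehicle and at 8.86, 8.74 and 8.90 in Tln1 VPA. Control array 1 was the lowest and Tln1 vehicle arrays 1 and 2 were the highest. Tln1 vehicle differed from control by 0.28 (SE 0.16), which was 0.54 within the first set and -0.08 within the second, and 0.10 without control array 1. Tln1 VPA differed from control by 0.24 (SE 0.16; 0.38 and 0.12 within the sets; 0.06 without control array 1) and from Tln1 vehicle by -0.04 (SE 0.14).

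Hsp90b1, the ER Hsp90, stood at 11.08 and 11.24 in control, at 11.44, 11.51 and 11.13 in Tln1 vehicle and at 11.40, 11.29 and 11.31 in Tln1 VPA. All VPA arrays lay above both control arrays (difference 0.17, SE 0.15), while Tln1 vehicle array 3 lay between the control arrays (Tln1 vehicle difference 0.20, SE 0.15; 0.40 and -0.11 within the sets). Pdia3, a disulfide isomerase that works on glycoproteins, stood at 10.60 and 10.47 in control, at 10.86, 11.05 and 10.37 in Tln1 vehicle and at 10.87, 10.79 and 10.64 in Tln1 VPA. Its VPA minus control difference was 0.23 (SE 0.20), with all VPA arrays above control. The Hsp70 partners Dnajb9, Dnajb11 and Dnajc3, the BiP exchange factor Hyou1, the isomerase Pdia6, the lectin chaperones Calr and Canx, and Sdf2l1, Manf and Creld2, further ER stress genes, gave Tln1 vehicle minus control differences from -0.19 (Sdf2l1) to 0.29 (Creld2), VPA minus vehicle differences from -0.20 (Dnajc3) to 0.17 (Sdf2l1) and VPA minus control differences from -0.16 (Dnajc3) to 0.25 (Dnajb11).

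In Sdf2l1 1 array stood apart: the level was 5.89 in Tln1 vehicle array 3 and between 6.57 and 6.95 in the other 7 arrays. Of the 13 folding genes, 11 were lowest of all 8 arrays in Tln1 vehicle array 3, where 23.4% of all genes were lowest, and 9 were highest in Tln1 vehicle array 2, where 13.2% of all genes were highest. Over all 27 ER members these counts were 17 and 13. In VPA against vehicle, 12 of 13 folding genes were lower in the first set and higher in the second (median -0.15 and 0.20), against 21.6% of all genes; this uses the same vehicle arrays as the comparison with control. In VPA against control, which does not use them, 10 of 13 were higher in the first set and 8 of 13 in the second, against 47.8% and 44.3% of all genes.

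**Figure D2:**
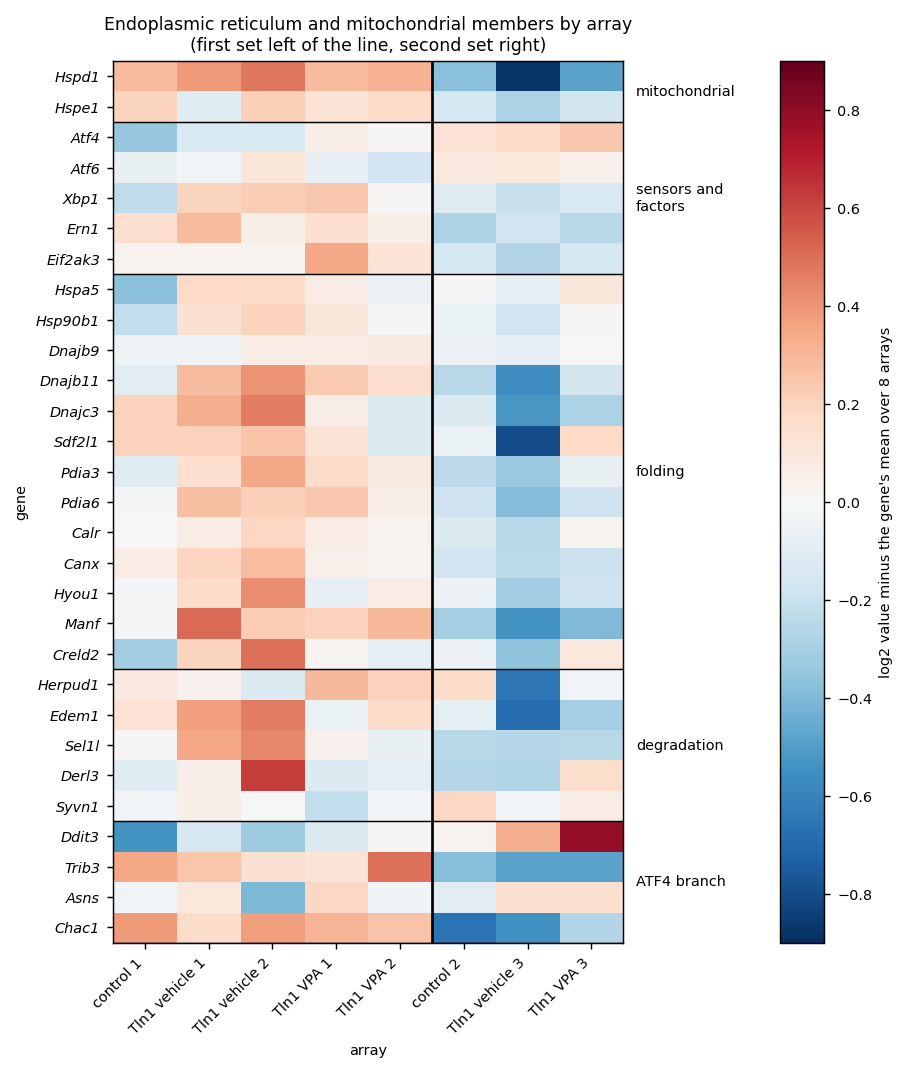
Heat map of the 2 mitochondrial and 27 ER members, ordered by role, in the 8 arrays, with the first set left of the line and the second right of it; colour is the log2 level minus the gene's mean over the 8 arrays. Most folding genes are highest in Tln1 vehicle arrays 1 and 2 and lowest in Tln1 vehicle array 3, while Atf4 and Ddit3 are higher in the second-set arrays.

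Among the ER-associated degradation genes, Herpud1 had the smallest p of all 38 members in VPA against vehicle. Herpud1, an ER membrane protein that helps assemble the degradation complex, stood at 10.61 and 10.69 in control, at 10.56, 10.39 and 9.88 in Tln1 vehicle and at 10.81, 10.73 and 10.50 in Tln1 VPA. All Tln1 vehicle arrays lay below both control arrays, and Tln1 VPA array 3 lay below Tln1 vehicle array 1. The Tln1 vehicle minus control difference was -0.37 (SE 0.21), -0.13 within the first set and -0.81 within the second, and -0.17 without Tln1 vehicle array 3. Blocked on array set it was -0.42 (SE 0.15, limma adjusted p = 0.609). The VPA minus vehicle difference was 0.41 (SE 0.19), 0.30 within the first set and 0.62 within the second, and 0.21 without Tln1 vehicle array 3. VPA minus control was 0.03 (SE 0.21). In Hspa5, which carries an ERSE as printed above, the same 3 differences were 0.28, -0.04 and 0.24.

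Sel1l, the scaffold of the main ER ubiquitin ligase, stood at 8.91 and 8.65 in control, at 9.25, 9.33 and 8.64 in Tln1 vehicle and at 8.94, 8.83 and 8.65 in Tln1 VPA. In the second set the 3 groups lay within 8.64 to 8.65, and in the first set the Tln1 vehicle arrays were the highest. The differences were 0.29 in Tln1 vehicle against control (SE 0.22; 0.16 without control array 2 or without Tln1 vehicle array 2) and -0.27 in VPA against vehicle (SE 0.20; -0.48 without Tln1 vehicle array 3). Syvn1, the ligase that Sel1l holds, gave -0.07, -0.07 and -0.14 in the 3 comparisons, Edem1, which hands glycoproteins to degradation, gave 0.02, -0.11 and -0.09, and Derl3, a channel component, gave 0.32, -0.15 and 0.17 at a level that was not above the median gene mean.

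Of the PERK and ATF4 branch targets, Ddit3 was ordered control, Tln1 vehicle, Tln1 VPA in both array sets. Over all genes, 20.8% were higher in Tln1 vehicle than in control in both sets. For VPA above vehicle this share was 22.4%, and the share of genes with both steps was not counted. Ddit3 encodes CHOP, a factor linked to cell death in lasting ER stress, and stood at 5.74 and 6.31 in control, at 6.13, 5.96 and 6.60 in Tln1 vehicle and at 6.15, 6.29 and 7.07 in Tln1 VPA. In the first set the control array was lowest and both VPA arrays lay above both vehicle arrays, and in the second set the values were 6.31, 6.60 and 7.07; across the sets the groups overlap. The VPA minus control difference was 0.48 (SE 0.33), 0.47 and 0.76 within the sets, and 0.59 in the blocked fit (SE 0.11, limma adjusted p = 0.266), which ranked 93 of 22180 genes and did not pass. It was 0.19 without control array 1 and 0.19 without Tln1 VPA array 3. The Tln1 vehicle minus control difference was 0.20 (SE 0.33; -0.08 without control array 1) and VPA minus vehicle 0.27 (SE 0.29; -0.01 without Tln1 VPA array 3).

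The other targets of this branch had smaller estimates of the difference between VPA and control, and the differences among these genes were not tested. Asns, the asparagine synthetase gene, stood at 6.11 and 6.04 in control, at 6.23, 5.73 and 6.28 in Tln1 vehicle and at 6.32, 6.10 and 6.28 in Tln1 VPA, with a VPA minus vehicle difference of 0.16 (SE 0.17) that was -0.02 without Tln1 vehicle array 2, the lowest array. Trib3, a kinase-like inhibitor, differed by -0.02, 0.08 and 0.06, and Chac1, a glutathione-degrading enzyme, by 0.13, 0.10 and 0.24 in the 3 comparisons. Both had means that were not above the median gene mean, with Chac1 spanning 3.92 to 4.97 and Trib3 3.69 to 4.67.

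Counted over the classes, ER members leaned higher than control by little. The median ER difference on the log2 scale was 0.12 in Tln1 vehicle against control (22 of 27 higher), -0.03 in VPA against vehicle (13 of 27 higher) and 0.14 in VPA against control (21 of 27 higher). Over all genes 55.6%, 51.3% and 56.8% were higher. The Tln1 vehicle median was 0.20 in the first array set and -0.10 in the second, 0.31 without Tln1 vehicle array 3, and -0.07 with the Y-linked mean as a covariate, which gave -0.03 in VPA against control. With 1 array left out at a time, the VPA against vehicle median took either sign, from -0.18 to 0.09 for the ER members and from -0.10 to 0.21 for the cytosolic members. In Tln1 vehicle against control, 2 of 38 members had all Tln1 arrays above control (Hspa1b and Bag3; 4.78% of all genes did) and 1 had all below (Herpud1; 3.59% of all genes did), beside 8.37% of all genes in either direction. In VPA against vehicle 0 of 38 had no overlap (3.55% of all genes, 1.98% higher and 1.57% lower). In VPA against control 8 of 38 members lay above control on every array (Hspa8, Hsp90aa1, Hsph1, Bag3, Hsp90b1, Dnajb9, Pdia3 and Calr; 21.1% of members, 5.57% of all genes) and 0 below (3.98% of all genes; 9.55% in either direction). For Hspa8 the nearest arrays of the 2 groups stood at 11.74 and 11.75. For Bag3 in Tln1 vehicle against control they both stood at 7.99 as rounded. In VPA against control none of the 8 had an unadjusted limma p below 0.05, with or without the array set as a block.

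**Figure D3:**
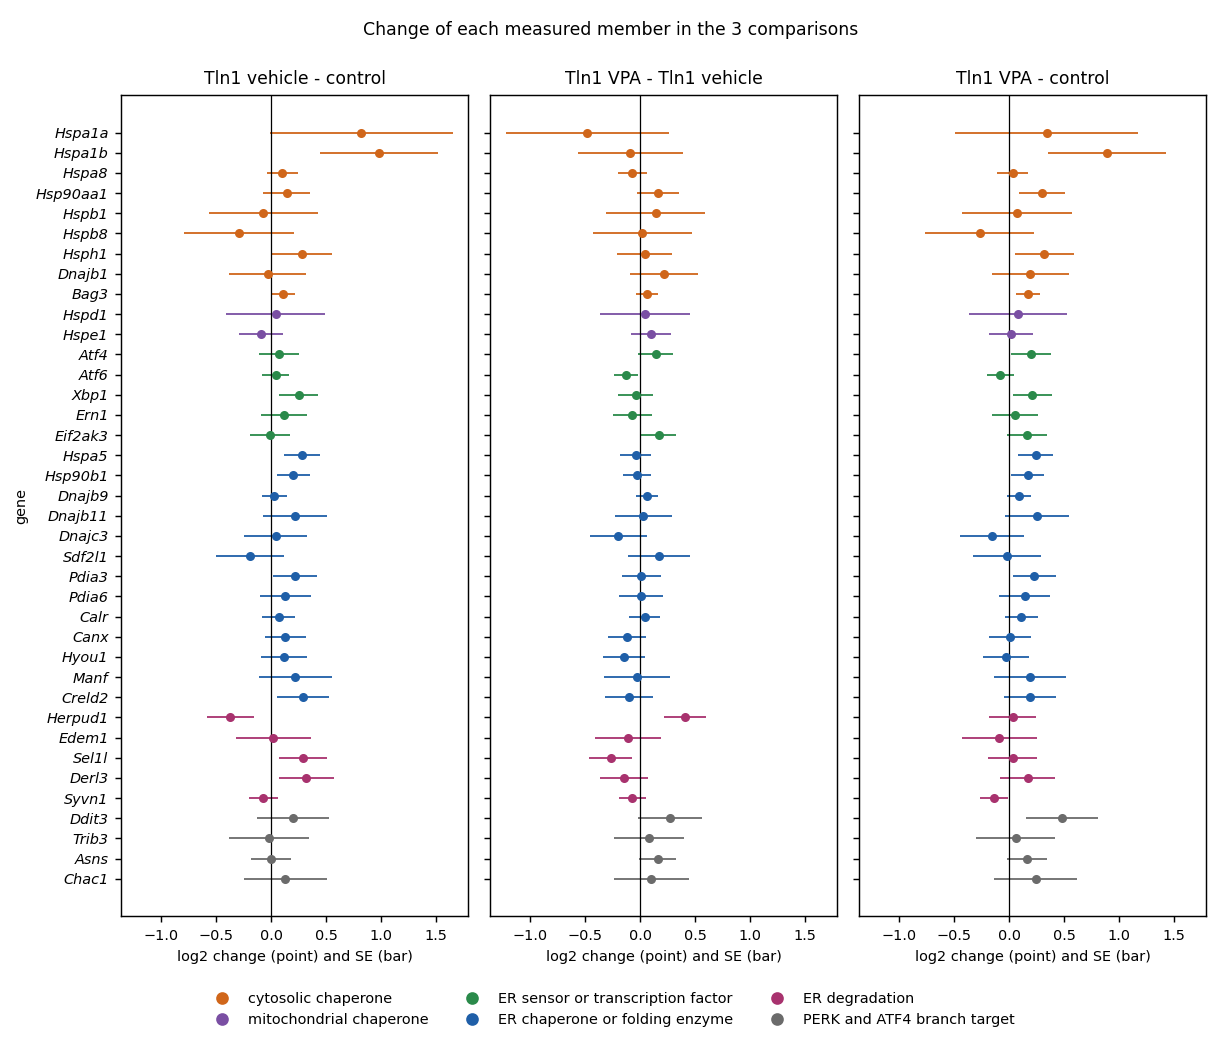
Log2 differences of the 38 members in the 3 comparisons, ordered by role, with points for the limma estimate and bars for its SE. Hspa1b lies farthest from 0 in both comparisons with control (0.98 and 0.89), and Herpud1 lies at -0.37 in Tln1 vehicle minus control and at 0.41 in VPA minus vehicle.

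Members also differed between the array sets: 6 of 9 cytosolic members stood higher in the second set, and both mitochondrial and 21 of 27 ER members lower. Of all 22180 genes, 7506 stood higher there and 14674 lower. Averaged over the groups, second-set minus first-set differences were 1.82 for Hspa1a, 1.11 for Hspa1b, 1.10 for Hspb8, 1.07 for Hspb1, 0.70 for Dnajb1, 0.66 for Ddit3 and 0.33 for Atf4. They were -0.92 for Hspd1, -0.81 for Chac1, -0.73 for Trib3, -0.62 for Manf, -0.56 for Edem1 and -0.50 for Dnajc3. The median was 0.70 over the cytosolic members, -0.63 over the mitochondrial, -0.28 over the ER members and -0.14 over all genes. Every second-set array lay above every first-set array for Hspa1a, Hspb1, Hspb8, Dnajb1, Atf4 and Ddit3, beside 13.2% of all genes, and below for Hspd1, Hspe1 and 10 of 27 ER members, beside 36.6% of all genes. In either direction this was 47.4% of the members and 49.8% of all genes, so the share of members separated by set is near the background. The sets were found from these same values, so the differences are a description with no test. The podocyte and tubule marker levels given above move with the sets, and their part in these differences was not tested.

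**Figure D4:**
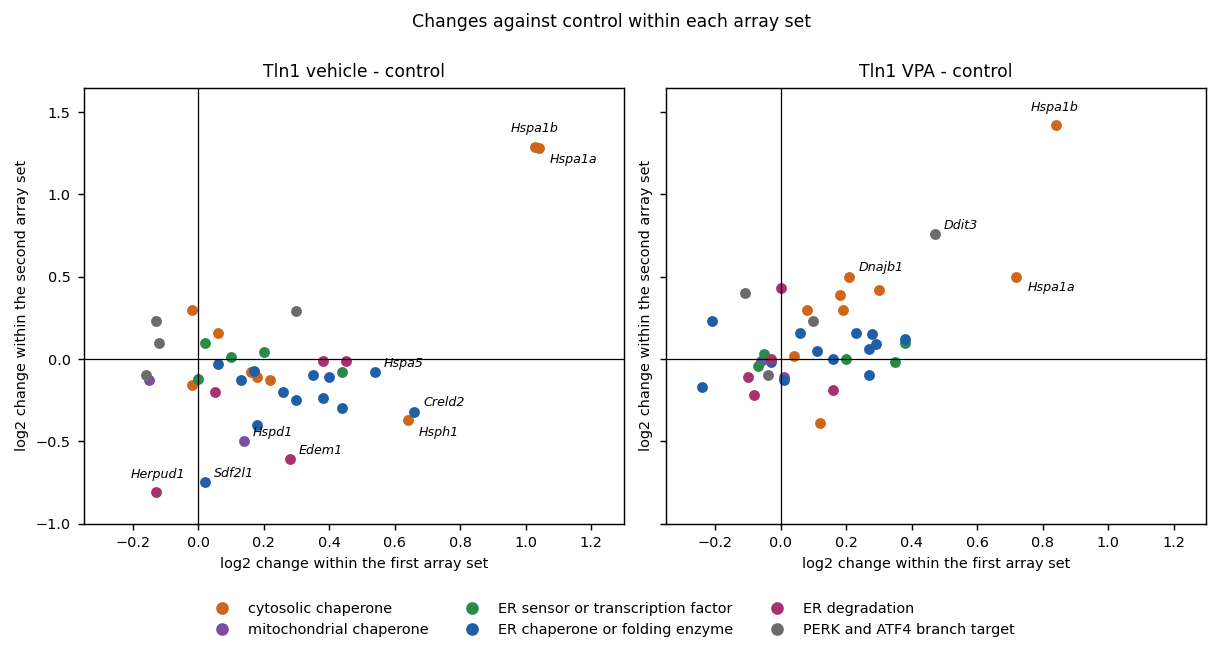
Tln1 vehicle minus control and VPA minus control differences of the members within the first array set (horizontal axis) against those within the second (vertical axis), in log2 units, coloured by class. In the panel of Tln1 vehicle, Hspa1a and Hspa1b lie above 1 on both axes, while all 13 ER folding genes lie right of 0 and below it.

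Further genes of both pathways gave no call either. Of 25 further heat shock genes 22 were measured and of 33 further unfolded protein response genes 33. In each comparison 0 of them were called, beside 0% of all genes. Above control lay 11 of 22 and 20 of 33 in Tln1 vehicle, beside 55.6% of all genes. In Tln1 VPA 17 of 22 and 20 of 33 lay above control, beside 56.8% of all genes. VPA lay above vehicle in 15 of 22 and 14 of 33, beside 51.3% of all genes. The smallest p in Tln1 vehicle against control belonged to Mthfd2, a mitochondrial folate enzyme under ATF4 (0.31, SE 0.11), Dnaja4, an Hsp70 partner (0.43, SE 0.21), and Dnajc10, an ER reductase (0.22, SE 0.11). In VPA against vehicle they belonged to Phgdh, the first enzyme of serine synthesis (0.64, SE 0.22), Cebpb, a bZIP factor (0.34, SE 0.13), and Ppp1r15a, which ends the PERK signal (-0.45, SE 0.23). In VPA against control they belonged to Psat1, the next enzyme of serine synthesis (0.98, SE 0.39), Mthfd2 (0.27, SE 0.11) and Creb3l2, an ER membrane factor (-0.47, SE 0.23). The limma adjusted p was 1.00 for each of them.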

How the data were processed

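Log2 expression values deposited by the authors were used as given; per the submitters' processing notes they were made with RMA, and limma is named there too. Versions: not given in the sources used here. Values ran from 1.49 to 13.9 over 41345 probe sets, of which 23521 had 1 symbol, 1814 several and 16010 none listed. The brightest probe set with a symbol of its own was kept per gene. One fit over all 8 arrays (limma 3.58.1 in R 4.3.3, lmFit and eBayes, group only, two-sided) gave the 3 comparisons, adjusted by Benjamini-Hochberg over 22180 genes and called below 0.05. The fit was tested on simulated data, with noise drawn independently for each gene and array and without array sets. Of genes changed there by 1 log2 unit, 45% to 56% were called. Recovery with the array sets present was not tested. Figures used Python 3.11.15 and matplotlib 3.10.9.

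The members and lists were chosen with earlier results of these data known. Values per array are given for Hspa1a, Hspa1b, Hspa5, Atf4, Xbp1 and Ddit3 and, per comparison, for the 3 cytosolic and 5 ER members with the smallest p, and the 3 further pathway genes with the smallest p are named. Array sets came from average-linkage clustering of correlations across genes. Same-numbered vehicle and VPA arrays deviated together (r = 0.570, 0.609 and 0.787), as did differently numbered arrays of the first set (0.515 and 0.510); control and vehicle numbers gave 0.609 and -0.591 and were not taken as pairs. Precision is limited by how few arrays there are.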

Additional observations from a re-analysis of the deposited data

How the results depend on the processing

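Over 16 alternatives for Tln1 vehicle against control, 17 for VPA against vehicle and 16 for VPA against control, 0 members were called, and the smallest adjusted p of a named member was 0.144, 0.643 and 0.146. Counts of called genes left 0 in 3 cases: with the replicate block, which is the pairing by number, 4 in Tln1 vehicle against control and 1 in VPA against control, and with the Y-linked mean as a covariate 21 in VPA against control. The block changed no other call. It gave -0.02 for Atf4 and -0.03 for Ddit3 in Tln1 vehicle against control, each of the opposite sign to the reported value. In VPA against control it gave -0.26 for Hspa1a, also of the opposite sign. This block joins control array 2, of the second set, with Tln1 vehicle and VPA arrays 2, of the first set. Within the sets these differences were 0.20 and 0.04 for Atf4, 0.30 and 0.29 for Ddit3, and 0.72 and 0.50 for Hspa1a. The Y-linked covariate turned the ER median in Tln1 vehicle against control to -0.07 and Xbp1 in VPA against vehicle to 0.03, and the first array set alone gave -0.01 for Hsp90aa1 in VPA against vehicle. The cause was not tested.

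Leaving out 1 array at a time, the ER median in Tln1 vehicle against control ran from 0.04 to 0.31. Ranges that crossed 0 in Tln1 vehicle against control were -0.09 to 1.72 for Hspa1a, -0.17 to 0.31 for Atf4 and -0.08 to 0.48 for Ddit3. In VPA against control they were -0.56 to 1.25 for Hspa1a and -0.03 to 0.44 for Atf4. In VPA against vehicle they were -1.01 to 0.21 for Hspa1a, -0.56 to 0.28 for Hspa1b, -0.05 to 0.27 for Hsp90aa1, -0.10 to 0.42 for Dnajb1, -0.13 to 0.01 for Hspa5, -0.18 to 0.05 for Xbp1, -0.02 to 0.26 for Asns and -0.01 to 0.46 for Ddit3. Where 1 control array was left, it was assumed to vary like the other groups. In the ranges against control that crossed 0, each negative end came without control array 1. That leaves the second-set control array alone against Tln1 arrays of both sets. The within-set differences of Hspa1a, Atf4 and Ddit3 from control were above 0 in both sets. Of all other recomputed values, 516 for single genes and 191 for counts and class medians kept their direction and their side of the threshold, or moved by less than the spread between arrays.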

Other observations

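Nupr1, a small stress-induced chromatin protein gene from the further unfolded protein response list, was chosen after its values were seen. It stood at 6.28 and 8.11 in control, at 7.42, 7.23 and 8.48 in Tln1 vehicle and at 7.51, 7.69 and 9.32 in Tln1 VPA. Within each array set its arrays were ordered control, Tln1 vehicle, Tln1 VPA, as for Ddit3. How many of all genes share this order was not counted. The VPA minus control difference was 0.98 (SE 0.71, limma adjusted p = 1.00), 1.32 and 1.21 within the sets, and 1.24 in the fit blocked on array set (SE 0.17, limma adjusted p = 0.208). The second-set minus first-set difference was 1.57.

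The shared probe set of Pdia4 and Mir704, which was not counted, averaged 6.94 over the control arrays, 7.28 over Tln1 vehicle and 7.29 over Tln1 VPA. The other 2 probe sets with Hspa8 as their only symbol gave differences of -0.13 and -0.13 in Tln1 vehicle against control, beside 0.10 for its brightest. In VPA against control they gave -0.05 and -0.02. A further probe set, which carries 2 symbols, gave 0.37 in Tln1 vehicle against control, 0.41 in VPA against vehicle and 0.78 in VPA against control. Another probe set with Hspb1 as its only symbol, at a mean of 4.09, gave 0.35, -0.05 and 0.29 in the same order. Its brightest gave -0.07, 0.14 and 0.07. Another for Edem1, at a mean of 3.68, gave 0.12, 0.02 and 0.13, beside 0.02, -0.11 and -0.09 for its brightest.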
